A study of Homo sapiens with 16 samples.

Results

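Transcripts of 35 genes of autophagy and the lysosome were followed in HepG2 cells given palmitic acid. The genes were picked by name, with earlier results of these data known. They were 12 lysosomal enzymes, 3 proteins of the lysosomal membrane, 4 parts of the proton pump, 14 genes of the autophagy core and 2 transcription regulators. All 35 were found among the 16558 genes of the deposited table, and all 35 passed the filter on low values that left 13095 genes to test.

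HepG2 is an established human liver cancer line with many features of hepatocytes. The 8 clones were prime-edited at PNPLA3, a lipid droplet protein, in the codon of its variant I148M, and each genotype is a small set of clones of this 1 line. The 3 genotypes were grown, in these groups: GG (clones 1, 2 and 6), GC (clones 2, 3 and 4) and CC (clones 1 and 3). Each clone gave 1 control library and 1 library after 250 µM palmitic acid, a saturated fatty acid, for 48 h by the study's protocol. Neither the line's genotype before editing nor the vehicle added to controls is stated. Libraries held 9314342 to 15777669 reads. Values are the authors' normalized read counts (CPM with TMM scaling), called units below, and are compared within a clone, and n is a number of clones. Repeat cultures of a clone were not measured.

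Autophagy wraps parts of the cell in a double membrane, and the resulting vesicle fuses with the lysosome, where acid hydrolases break its cargo down. The V-type proton pump acidifies the lysosome, and membrane proteins such as LAMP1 protect and shape it. TFEB and TFE3 are related transcription factors that, on starvation or lysosomal stress, enter the nucleus and switch on many of these genes through a short E-box motif. In liver cells the pathway also takes part in the breakdown of lipid droplets.

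The promoters that carry this motif are shown first, since they include both genes that rose and a gene that fell. The motif searched was GTCACGTG on either strand, which reads CACGTGAC on the other strand and holds the plain E-box CACGTG. RefSeq promoters of GRCh38.p14, 250 bases before to 50 bases after a transcript start, were matched to 29 of the 35 genes. Of these 29, 7 genes (24.1%) held GTCACGTG, against 2.93% of all 27305 genes with a promoter and 2.40% of all promoters of the same length. The plain CACGTG was in 8 of the 29 (27.6%), against 8.77% of all genes. Sites flanked on both sides show as longer capital runs in GAA and MCOLN1. The sequences below run 5′ to 3′ in the direction of the gene, with the motif in capitals.

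LAMP1, chr13:113296989-113297238, plus strand: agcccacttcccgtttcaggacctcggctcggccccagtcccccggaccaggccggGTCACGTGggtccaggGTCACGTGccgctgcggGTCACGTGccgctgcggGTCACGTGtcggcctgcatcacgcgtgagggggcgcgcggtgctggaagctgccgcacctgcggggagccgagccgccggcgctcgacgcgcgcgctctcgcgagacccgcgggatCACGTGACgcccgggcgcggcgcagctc
GAA, chr17:80101481-80101557, plus strand: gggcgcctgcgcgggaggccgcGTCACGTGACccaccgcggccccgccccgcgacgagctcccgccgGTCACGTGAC
MCOLN1, chr19:7522524-7522623, plus strand: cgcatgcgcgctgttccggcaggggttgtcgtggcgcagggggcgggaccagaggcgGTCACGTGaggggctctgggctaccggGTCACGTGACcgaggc
CTSA, chr20:45891289-45891318, plus strand: ctGTCACGTGgcgccggagttCACGTGACt
ATP6V0D1, chr16:67481200-67481229, minus strand: gcccccttatgGTCACGTGaggcgcttgcg
CTSD, chr11:1763958-1763987, minus strand: cgccggccgcgccCACGTGACcggtccggg
ATG3, chr3:112561963-112561992, minus strand: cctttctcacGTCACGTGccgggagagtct

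LAMP1 had 6 sites, 4 of them in a row upstream and 1 across the transcript start, beyond the bases printed. GAA, CTSA and MCOLN1 had 2 sites each, and ATG3 had 1 upstream and 1 just inside the transcript. ATP6V0D1 and CTSD had 1 site each. The printed bases were held to 30 for the last 4 genes because annotated exons reach into their wider windows. Such a match describes the letters of the window and does not show that a factor binds there. The members without a matched promoter were ATP6V1A, ATP6V1H, CTSB, HEXA, LAMP2 and PSAP.

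In CC clone 3 the log2 changes of all tested genes had an SD of 0.567, against 0.311 to 0.404 in the other 7 clones, and its palmitic acid library had the fewest reads, 9314342. All 6 hepatocyte markers were present, and 3 of them fell with palmitic acid: ALB by 0.40, APOA1 by 0.45 and HNF4A by 0.27 on the log2 scale (limma, adjusted p = 0.0107, 0.0104 and 0.0289). Their summed level was 12741 to 27197 units in controls and 12204 to 22756 units with palmitic acid. Of markers of other cells, 3 of 6 stellate, 2 of 5 macrophage, 3 of 5 endothelial and 3 of 4 biliary genes were in the table. Their sums in controls and with palmitic acid were 0.696 to 22.6 and 1.22 to 14.6 units for stellate genes, 1.39 to 4.79 and 0.627 to 2.10 for macrophage genes, 1.27 to 19.2 and 1.34 to 10.4 for endothelial genes, and 288 to 419 and 286 to 395 for biliary genes. PDGFRB rose by 1.12, CD14 fell by 1.03 and PECAM1 fell by 0.59 on the log2 scale (adjusted p = 0.0251, 0.0057 and 0.00621); COL1A2, CD163 and VWF were not analysed here. The part of these shifts in the results below was not tested. Every library is of a HepG2 clone, so these markers do not count cells of other types. In such bulk libraries fewer expressing cells of a clone and less RNA per cell cannot be told apart.

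By level per kilobase of all annotated exons, PSAP, the precursor of the saposins that help degrade sphingolipids, was highest at 194 units. The proteases CTSB (106 units per kilobase) and CTSD (74.4) and the membrane protein LAMP2 (52.7) came next. In plain units CTSB averaged 784 and PSAP 629, so the order depends on the length used. The lowest were the lysosomal calcium channel MCOLN1 (1.74 units per kilobase), ATG7 (2.02) and TFEB (3.20). MCOLN1 was covered by 60 to 130 reads in a library and TFEB by 104 to 367. Clones differed before any treatment: over the 8 controls the highest level was 2.69 times the lowest for WIPI1, 2.68 times for CTSD and 2.54 times for SQSTM1, against 1.20 times for the pump's accessory subunit ATP6AP1.

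With palmitic acid 9 of the 35 genes rose and 3 fell, while 23 did not pass (34.3% called). Over all 13095 tested genes, 18.9% were called (9.33% up, 9.52% down). The test was limma on log2 of the value plus 0.5, with clone as a block, averaging the responses of the 3 genotypes, and a gene was called below a Benjamini-Hochberg adjusted p of 0.05 over all tested genes. The median log2 change of the 35 was 0.13, with 26 above 0, against a median of -0.01 over all tested genes, and it was 0.07 without CC clone 3 and 0.17 without CC clone 1. Without the clone block none of the 35 was called (adjusted p 0.161 for TFEB and 0.557 for SQSTM1), and 0.0458% of all tested genes were. Without CC clone 3, where the spread comes from the GG and GC clones and the lone CC clone is assumed to vary like them, GAA, SQSTM1 and TFEB were called, 3 of 35 genes, beside 9.58% of all tested genes. Without GG clone 1 or GC clone 3 the count was 7 or 5 of the 35, beside 11.7% or 11.1% of all tested genes. Without CC clone 1, which leaves CC clone 3, the clone with the widest response, as the lone CC clone under the same assumption, the count was 19, beside 28.7%. On recovered reads edgeR called 12 and DESeq2 11 of the 35, beside 18.2% and 14.5% of all tested genes.

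**Figure D1:**
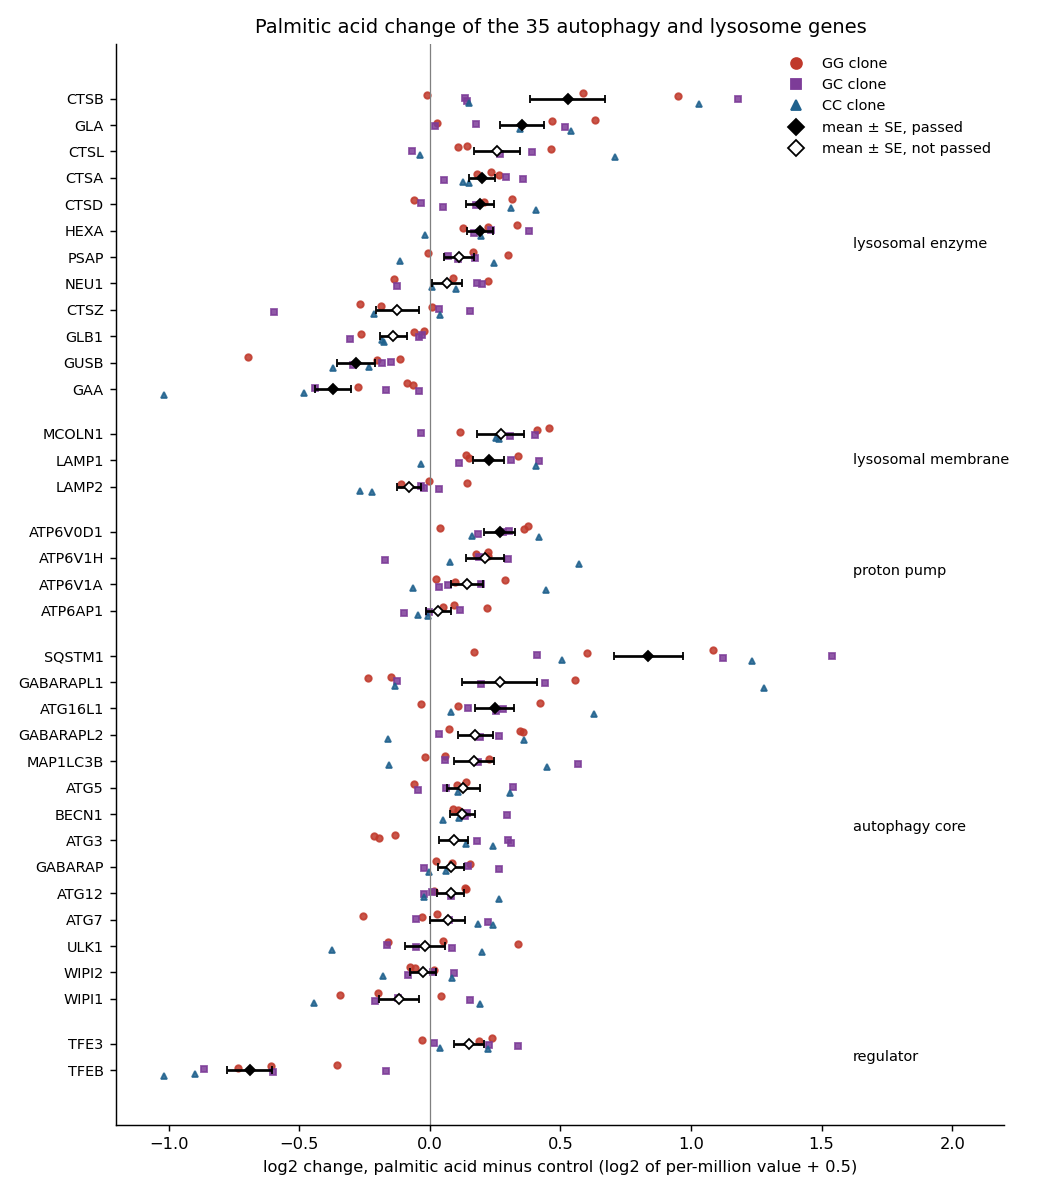
Log2 change from control to palmitic acid for the 35 genes, grouped by role. Coloured points are single clones (circles GG, squares GC, triangles CC), and diamonds with bars are the mean over genotypes ± SE, filled where the gene passed. SQSTM1 lies farthest to the right at 0.84 and TFEB farthest to the left at -0.69.

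Of the 12 lysosomal enzymes 5 rose, 2 fell and 5 did not pass, with a median log2 change of 0.15 (0.09 without CC clone 3). Gene positions here and below are those of GENCODE on GRCh38. The cathepsins CTSB, CTSD and CTSA and the glycosidases GLA and HEXA rose, while GAA and GUSB, both glycosidases, fell. In controls CTSB stood at 567, 526 and 707 units in GG clones 1, 2 and 6, at 546, 588 and 716 in GC clones 2, 3 and 4, and at 446 and 821 in CC clones 1 and 3. With palmitic acid the same clones gave 852, 522 and 1367, then 598, 1332 and 789, then 495 and 1678 units. CTSB (chr8:11842524-11869448), a cysteine protease, was far higher with palmitic acid in GG clone 6, GC clone 3 and CC clone 3, moderately higher in GG clone 1 and near its control in the other 4, so that both sets of libraries overlapped. The log2 change of CTSB was 0.53 ± 0.14 (SE, 8 clones; adjusted p = 0.0258), and without CC clone 3 the adjusted p was 0.137.

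GAA (chr17:80101556-80119879) breaks down glycogen in the lysosome and is the gene lost in Pompe disease. In controls GAA stood at 98.3, 77.9 and 77.9 units in GG clones 1, 2 and 6, at 145, 154 and 185 in GC clones 2, 3 and 4, and at 109 and 140.1 in CC clones 1 and 3. With palmitic acid the same clones gave 92.6, 74.4 and 64.3, then 107, 137 and 179, then 78.2 and 68.9 units. All 8 clones were lower with palmitic acid, by little in GC clone 4 and most in CC clone 3, with a log2 change of -1.02. The mean log2 change was -0.37 ± 0.07 (SE, 8 clones; adjusted p = 0.00448), and it passed in 8 of 8 fits that left out 1 clone. GUSB (chr7:65960684-65982314), a beta-glucuronidase, was also lower in 8 of 8 clones. GUSB measured 31.8, 27.0 and 18.6 units in the GG controls against 19.4, 24.9 and 16.1 with palmitic acid, 28.6, 32.6 and 30.5 against 25.7, 28.7 and 24.8 in the GC clones, and 32.3 and 29.2 against 27.4 and 22.5 in the CC clones. On the log2 scale the change was -0.28 ± 0.07 (SE, 8 clones; adjusted p = 0.0213), with the largest fall in GG clone 1, and without CC clone 3 the adjusted p was 0.0832. Reads of GUSB are uncertain because several near copies were counted as well, of which GUSBP11 averaged 24.0 units beside 26.2 for GUSB itself.

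GLA (chrX:101397803-101408012), the alpha-galactosidase lost in Fabry disease, was higher with palmitic acid in 8 of 8 clones. GLA measured 16.5, 28.0 and 13.2 units in the GG controls against 25.9, 38.9 and 13.5 with palmitic acid, 18.1, 16.3 and 20.1 against 20.5, 16.5 and 29.0 in the GC clones, and 21.3 and 11.3 against 27.2 and 16.7 in the CC clones. Its log2 change was near 0 in GG clone 6 (0.03) and GC clone 3 (0.02). The log2 change of GLA was 0.35 ± 0.08 (SE, 8 clones; adjusted p = 0.0157), and its adjusted p was 0.0665 without CC clone 3. CTSA (chr20:45890144-45898820), a carboxypeptidase that also protects other lysosomal enzymes, was higher in 8 of 8 clones too. CTSA measured 158, 156 and 119 units in the GG controls against 186, 177 and 143 with palmitic acid, 138, 122 and 72.2 against 169, 157 and 74.9 in the GC clones, and 171 and 163 against 186 and 180.3 in the CC clones. GC clone 4 had the lowest CTSA level of the 8 clones in both conditions. The log2 change of CTSA was 0.20 ± 0.05 (SE, 8 clones; adjusted p = 0.0163), with an adjusted p of 0.0511 without CC clone 3.

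CTSD (chr11:1752752-1764573) is the main aspartic protease of the lysosome. CTSD measured 158, 179 and 234 units in the GG controls against 197, 172 and 270.4 with palmitic acid, 193, 193 and 423 against 189, 218 and 439 in the GC clones, and 198 and 176 against 246 and 234 in the CC clones. It was higher with palmitic acid in 6 clones and slightly lower in GG clone 2 and GC clone 2, and GC clone 4 stood well above all others in both conditions. The log2 change of CTSD was 0.19 ± 0.05 (SE, 8 clones; adjusted p = 0.0291). HEXA (chr15:72340919-72376476), a subunit of the hexosaminidase that degrades gangliosides, was higher in every clone but CC clone 1. HEXA measured 92.9, 87.1 and 81.8 units in the GG controls against 117, 102 and 89.3 with palmitic acid, 85.9, 87.5 and 73.3 against 101, 114 and 82.5 in the GC clones, and 91.3 and 99.9 against 90.1 and 115 in the CC clones. HEXA changed by 0.19 ± 0.05 (SE, 8 clones; adjusted p = 0.0237) on the log2 scale. Exons of CTSD share 41.7% of their bases with AC068580.4 on the same strand, and those of CTSA 17.7% with NEURL2 on the other. Without CC clone 3 the adjusted p was 0.101 for CTSD and 0.111 for HEXA. The 5 enzymes that did not pass had log2 changes of 0.26 for the cysteine protease CTSL (adjusted p = 0.0657), 0.11 for PSAP, 0.07 for the sialidase NEU1, -0.12 for the protease CTSZ and -0.14 for the beta-galactosidase GLB1. GLB1 was lower in 8 of 8 clones (adjusted p = 0.0815), with controls at 86.4 to 126 units and palmitic acid libraries at 84.7 to 110 units.

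Of the lysosomal membrane proteins, LAMP1 rose, and MCOLN1 and LAMP2 did not pass. LAMP1 measured 144, 90.1 and 173 units in the GG controls against 159, 114 and 192 with palmitic acid, 122, 123 and 106 against 151, 164 and 114 in the GC clones, and 156 and 138 against 152 and 182 in the CC clones. LAMP1 (chr13:113297241-113323672), the most used marker of lysosomes, was higher in every clone but CC clone 1, and both conditions overlapped. The mean change was 0.22 ± 0.06 (SE, 8 clones; adjusted p = 0.0258) on the log2 scale, and without CC clone 3 the adjusted p was 0.14. MCOLN1 measured 4.77, 6.42 and 5.86 units in the GG controls against 6.74, 8.69 and 6.39 with palmitic acid, 7.68, 5.65 and 4.83 against 7.49, 7.63 and 6.10 in the GC clones, and 7.59 and 6.78 against 9.15 and 8.25 in the CC clones. MCOLN1 (chr19:7522626-7534009) was higher in 7 clones and about level in GC clone 2, and its log2 change was 0.27 ± 0.09 (SE, 8 clones; adjusted p = 0.0573). LAMP2, which is related to LAMP1 and also serves chaperone-mediated autophagy, had a log2 change of -0.08 and was lower in 6 of 8 clones (adjusted p = 0.246).

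Of the 4 listed proton pump genes 1 rose, ATP6V0D1, and 3 did not pass. ATP6V0D1 measured 39.0, 51.2 and 41.4 units in the GG controls against 50.7, 52.5 and 53.3 with palmitic acid, 48.7, 35.7 and 28.1 against 60.2, 43.3 and 32.0 in the GC clones, and 50.6 and 39.9 against 56.7 and 53.5 in the CC clones. ATP6V0D1 (chr16:67438014-67481237), part of the membrane stalk that couples the cytosolic and the membrane domain of the pump, was higher with palmitic acid in 8 of 8 clones, least in GG clone 2. Its log2 change was 0.27 ± 0.06 (SE, 8 clones; adjusted p = 0.0105), and without CC clone 3 the adjusted p was 0.0553. ATP6V1H measured 34.2, 31.1 and 43.3 units in the GG controls against 40.0, 35.2 and 50.6 with palmitic acid, 30.0, 30.1 and 32.8 against 34.2, 37.1 and 29.1 in the GC clones, and 30.6 and 33.4 against 32.2 and 49.8 in the CC clones. ATP6V1H (chr8:53715557-53843558), a regulatory subunit of the cytosolic domain, was higher in every clone but GC clone 4, with a log2 change of 0.21 ± 0.07 (SE, 8 clones; adjusted p = 0.0634). The catalytic subunit ATP6V1A had a log2 change of 0.14 (adjusted p = 0.131) and ATP6AP1 one of 0.03 (adjusted p = 0.658). The median of the 4 was 0.18, and 0.09 without CC clone 3.

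In the autophagy core 2 of 14 genes rose, none fell and 12 did not pass, and SQSTM1 had the largest mean change of the 35 genes in either direction. SQSTM1 (chr5:179806398-179838078) encodes p62, the receptor that ties ubiquitin-marked cargo to the growing membrane and is itself degraded by autophagy. In controls SQSTM1 stood at 111, 90.5 and 188 units in GG clones 1, 2 and 6, at 115, 104 and 138 in GC clones 2, 3 and 4, and at 75.4 and 192 in CC clones 1 and 3. With palmitic acid the same clones gave 235, 102 and 286, then 152, 304 and 300.3, then 107 and 452 units. Every clone was higher with palmitic acid, from a slight rise in GG clone 2 to 304 from 104 units in GC clone 3, while the control of CC clone 3 lay above 3 of the palmitic acid libraries. The log2 change was 0.84 ± 0.13 (SE, 8 clones; adjusted p = 0.00197), a fold of 1.79, and it passed in 8 of 8 fits that left out 1 clone. Exons of SQSTM1 share 20.7% of their bases with MRNIP on the other strand; the libraries are stranded, and the sources do not say if counting used strand.

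ATG16L1 (chr2:233210051-233295674), which places the enzyme that attaches LC3 to membranes, rose less. ATG16L1 measured 29.8, 40.6 and 51.9 units in the GG controls against 40.1, 39.6 and 56.0 with palmitic acid, 31.2, 28.9 and 25.6 against 34.6, 35.2 and 30.6 in the GC clones, and 33.5 and 39.0 against 35.5 and 60.5 in the CC clones. It was higher in every clone but GG clone 2 and most so in CC clone 3, and the conditions overlapped. Its log2 change was 0.25 ± 0.07 (SE, 8 clones; adjusted p = 0.0377), and without CC clone 3 it was 0.16 with an adjusted p of 0.216. Of the LC3 family, whose members are attached to the autophagosome membrane, MAP1LC3B had a log2 change of 0.17, GABARAPL2 of 0.17, GABARAPL1 of 0.27 and GABARAP of 0.08, and none passed (adjusted p = 0.144, 0.0913, 0.211 and 0.264). GABARAPL1 went apart between clones: it was higher by 1.28 in CC clone 3, 0.56 in GG clone 6, 0.44 in GC clone 3 and 0.20 in GC clone 4, and lower in the other 4. The near copy MAP1LC3B2 stood at 0.408 to 2.75 units, beside 88.7 to 240.5 units for MAP1LC3B.

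The genes that start and extend the membrane had small log2 changes, and none passed. BECN1, part of the lipid kinase complex that begins the process, was higher in 8 of 8 clones, with a log2 change of 0.12 (adjusted p = 0.0834). The initiating kinase ULK1 (-0.02) and the phosphoinositide binders WIPI2 (-0.03) and WIPI1 (-0.12) had mean log2 changes at or a little under 0, none of which passed. In the conjugation machinery the log2 changes were 0.13 for ATG5, 0.09 for ATG3, 0.08 for ATG12 and 0.07 for ATG7. Apart from SQSTM1, the 13 core genes had a median log2 change of 0.09, and 1 of them was called.

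Of both regulators TFEB fell and TFE3 did not pass. In controls TFEB stood at 25.4, 18.9 and 20.6 units in GG clones 1, 2 and 6, at 29.0, 21.3 and 17.3 in GC clones 2, 3 and 4, and at 20.9 and 23.4 in CC clones 1 and 3. With palmitic acid the same clones gave 19.8, 12.2 and 12.1, then 15.7, 18.9 and 11.3, then 11.0 and 11.3 units. TFEB (chr6:41683978-41736259) was lower with palmitic acid in 8 of 8 clones, least in GC clone 3 and most in CC clone 3. Its palmitic acid libraries at 11.0 to 19.8 units overlapped the controls at 17.3 to 29.0 units, through GG clone 1 and GC clone 3. The log2 change was -0.69 ± 0.09 (SE, 8 clones; adjusted p = 0.00064), a level of 0.620 times the control, and it passed in 8 of 8 fits that left out 1 clone. TFE3 measured 54.5, 61.9 and 57.6 units in the GG controls against 64.3, 60.6 and 65.7 with palmitic acid, 47.0, 46.6 and 59.5 against 47.6, 54.5 and 75.3 in the GC clones, and 48.5 and 54.8 against 49.9 and 64.0 in the CC clones. TFE3 (chrX:49028726-49043486) was slightly higher in 7 of 8 clones, and its log2 change was 0.15 ± 0.06 (SE, 8 clones; adjusted p = 0.0867). Per kilobase of exon TFE3 (13.3 units) was more abundant than TFEB (3.20 units).

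**Figure D2:**
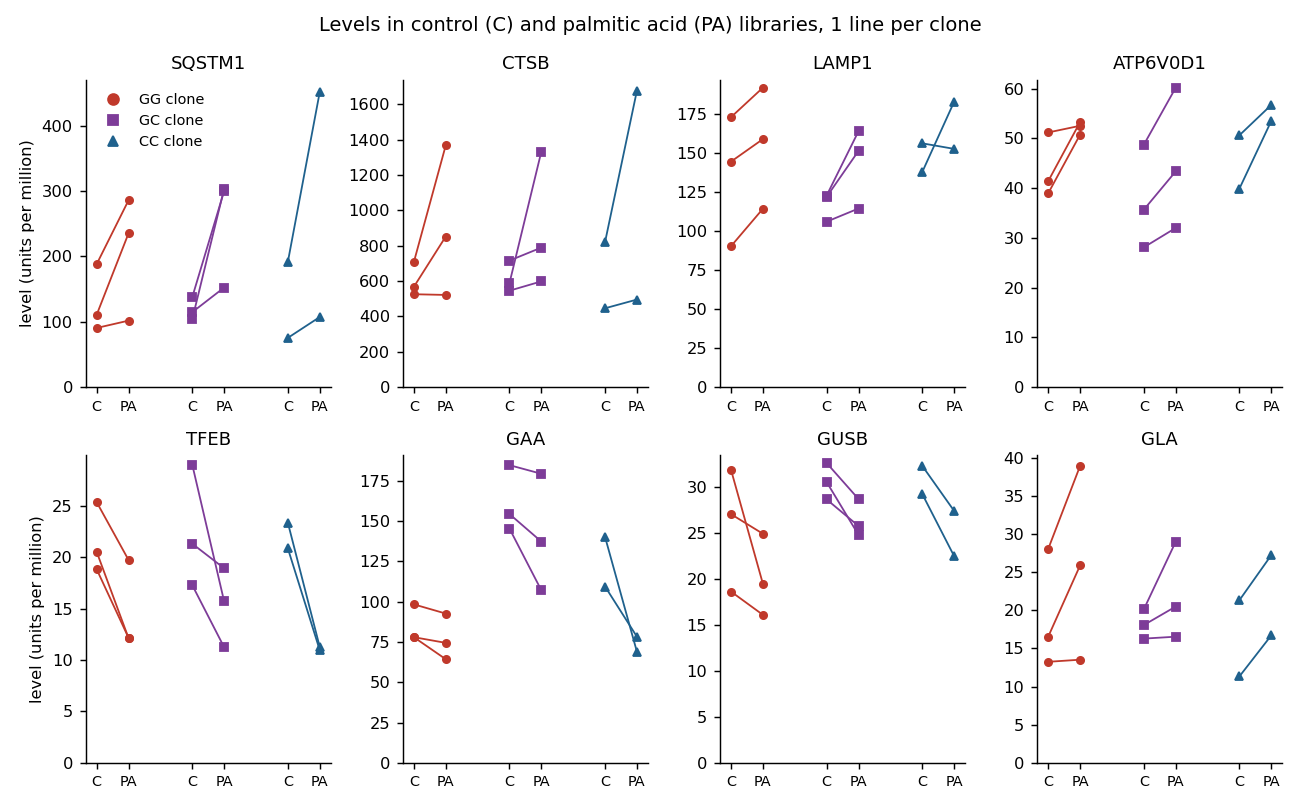
Levels in units (normalized CPM) of 8 of the genes that passed, with 1 line per clone from control (C) to palmitic acid (PA) and y axes that start at 0. SQSTM1 and CTSB rise steeply in some clones and little in others, whereas TFEB, GAA and GUSB slope down in all 8 clones.

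Among the 7 genes with GTCACGTG in the promoter, CTSA, CTSD, LAMP1 and ATP6V0D1 rose, GAA fell, and MCOLN1 and ATG3 did not pass, with a median log2 change of 0.20. Of the 22 genes with a matched promoter that lacked it, 3 rose and 2 fell, with a median of 0.08. Over all 513 tested genes with the motif, 10.7% rose and 6.43% fell, against 9.72% and 9.53% of all 9681 tested genes with a promoter. TFEB, SQSTM1 and GLA, which had large changes, had no GTCACGTG in these windows.

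Within single genotypes, each of 2 or 3 clones, fewer genes passed. The limma SE and p of a genotype rest on 1 spread shared by the 3 genotypes, not on its own clones alone. In GG none of the 35 was called by limma, beside 0.84% of all tested genes. Of the 35, 10 had an unadjusted limma p under 0.05 in GG, beside 2053 of all 13095 tested genes. By edgeR and by DESeq2 none of the 35 was called in GG either. In GC the log2 change of SQSTM1 was 1.02 ± 0.21 (limma adjusted p = 0.0400; SE, 3 clones), beside 1.54% of all tested genes; without GC clone 3 or GC clone 4 its adjusted p was 0.3801 or 0.233. In CC TFEB fell by 0.96 ± 0.17 and GAA fell by 0.75 ± 0.13 (SE from the shared spread, n = 2 clones, limma adjusted p = 0.0202 and 0.0205), beside 2.3% of all tested genes. In CC clones 1 and 3 TFEB changed by -0.90 and -1.02, and GAA by -0.48 and -1.02. Without CC clone 3 the log2 changes were -0.90 and -0.48 (adjusted p = 0.273 and 0.406). Without CC clone 1 a total of 8 of the 35 genes were called in CC, beside 15.9% of all tested genes. In both fits CC is 1 clone, so the spread comes from the GG and GC clones only and the lone clone is assumed to vary like them.

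The response itself was then compared between genotypes, and no member passed in any of the 3 differences (limma interaction terms; 1, 2 and 1 members had an unadjusted p under 0.05 for GG minus GC, GG minus CC and GC minus CC, and edgeR and DESeq2 called none). The shares of all tested genes called were 0%, 0.00764% and 0.00764%. By limma 229, 768 and 613 of the 13095 tested genes had an unadjusted p under 0.05 in these differences. ATG3, the enzyme that joins LC3 to its lipid, came nearest for GG minus GC, with a difference of -0.44 ± 0.12 (limma adjusted p = 0.999, unadjusted 0.00409). ATG3 measured 29.1, 29.9 and 25.9 units in the GG controls against 26.5, 25.8 and 22.6 with palmitic acid, 26.8, 26.3 and 26.3 against 33.1, 29.9 and 32.7 in the GC clones, and 26.8 and 24.3 against 29.5 and 28.9 in the CC clones. Its level was lower with palmitic acid in all 3 GG clones and higher in all 5 GC and CC clones. How many of all tested genes split in this way was not counted. The second smallest p for GG minus GC was that of SQSTM1 (-0.41 ± 0.30; adjusted p = 0.999). For GG minus CC the leading members were GAA (0.61 ± 0.17) and ATG3 (-0.37 ± 0.14), both at an adjusted p of 0.797. For GC minus CC they were GAA (0.53 ± 0.17) and CTSD (-0.29 ± 0.14), both at 0.911. Without CC clone 1, so that CC rests on clone 3 and its spread is taken from the GG and GC clones, GAA passed for GG minus CC (0.88; adjusted p = 0.0222) and GC minus CC (0.80; adjusted p = 0.0336), and GABARAPL1 for GG minus CC (-1.22; adjusted p = 0.0482). In those fits 3.71% of all tested genes passed for GG minus CC and 2.85% for GC minus CC.

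Levels between genotypes, taken as the geometric mean of both libraries of a clone, gave no call among the 35 or among all tested genes (0% in each of the 3 comparisons; 722, 101 and 534 of the 13095 genes had an unadjusted p under 0.05 for GG minus GC, GG minus CC and GC minus CC). Of the 35, 1, 0 and 2 had such a p, and edgeR on reads summed per clone called none. GAA was the member with the smallest unadjusted p (limma, 0.00106 for GG minus GC). Its clone means were 95.4, 76.2 and 70.8 units in GG, 125, 146 and 182 units in GC, and 92.5 and 98.3 units in CC. The GC clones did not overlap the others while GG and CC did. How many of all tested genes separate in this way, which few clones allow by chance, was not counted. The log2 difference of GAA was -0.89 ± 0.18 for GG minus GC (limma adjusted p = 0.847) and 0.64 ± 0.20 for GC minus CC (0.901). WIPI1 stood at 90.9, 62.7 and 81.0 units in the GC clones and 45.0 and 45.4 units in the CC clones, a log2 difference of 0.77 ± 0.31 (adjusted p = 0.901), and its exons share 24.3% of their bases with ARSG on the other strand. ATG16L1 was higher in GG than in GC by 0.44 ± 0.21 (adjusted p = 0.847). The leading members for GG minus CC were CTSL (-0.30 ± 0.19) and GUSB (-0.30 ± 0.21), with adjusted p of 1.00 each.

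**Figure D3:**
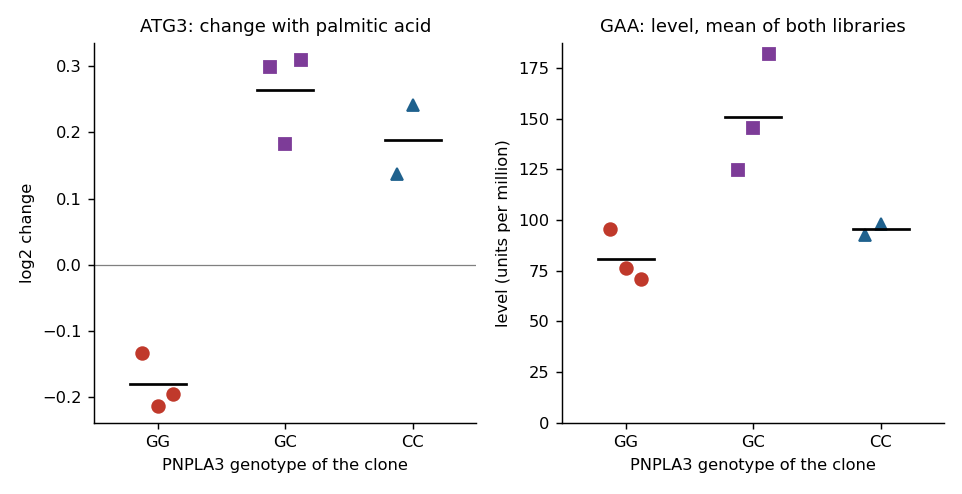
Left, log2 change of ATG3 with palmitic acid by PNPLA3 genotype; right, level of GAA in units (normalized CPM) as the geometric mean of both libraries of a clone. Points are clones and black lines are means. ATG3 lies below 0 in the 3 GG clones and above it in the other 5, and GAA lies at 125 to 182 units in the GC clones; neither difference passed after adjustment.

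The spread of the 35 genes over the 16 libraries was mainly between clones. Pooled over the 35 genes, so that genes with more spread weigh more, 57.1% of the sum of squares lay between clones of a genotype. A further 16.7% lay between genotypes, 15.9% between treatments and 2.07% in the interaction, with 8.15% left. Pooled over all tested genes the shares were 61.3%, 19.9%, 8.17%, 2.94% and 7.61%. Treatment made up 59.3% for TFEB and 32.4% for SQSTM1. For GAA 65.8% lay between genotypes, for CTSD 75.5% between clones, and for ATG3 51.8% in the interaction of genotype and treatment. The median change of the 35 genes by clone ran from -0.02 in CC clone 1 and -0.01 in GG clone 2 to 0.18 in GC clone 3 and 0.24 in CC clone 3, while the median over all tested genes lay between -0.02 and 0.02 in every clone.

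Of the pathway's further genes, listed by role, 156 were tested. Of them 28 rose and 7 fell (22.4% called, median log2 change 0.05), beside 18.9% over all tested genes. Without CC clone 3 the counts were 10 and 4 (8.97%), beside 9.58%. They were 15 and 5 without GG clone 1, 13 and 5 without GC clone 3, and 44 and 13 without CC clone 1, beside 11.7%, 11.1% and 28.7% of all tested genes. Lysosomal membrane proteins and the pump held the highest shares, with 6 of 16 and 6 of 18 genes up and 0 and 1 down. Those that moved alike in all 8 clones were, in the membrane, LAPTM4B (0.39 on the log2 scale), the sialic acid exporter SLC17A5 (0.38), the tetraspanin CD63 (0.37) and the chloride exchanger CLCN7 (0.34). In the pump they were ATP6V1E1 (0.41), ATP6V1G1 (0.35) and ATP6V0E1 (0.30), and ATP6V1G2, an isoform at a mean of 1.16 units, fell by 0.47. Among the other 34 enzymes 2 rose and 2 fell, with the protease CTSV at -0.70 and lower in 8 of 8 clones. Of these 34, 11.8% were called, with a median log2 change of -0.02, beside 18.9% over all tested genes. The 12 enzymes of the list had 58.3% called and a median of 0.15, so their rise was not shared by the other enzymes. In the core, 3 of 23 rose and 1 fell, with VMP1 at 0.31 and ATG4D at 0.26.

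Selective autophagy receptors gave 2 up and 1 down of 12: the mitophagy receptor BNIP3 rose by 0.21 and the ferritin receptor NCOA4 fell by 0.24 in 8 of 8 clones. Of 14 genes for fusion with the lysosome 3 rose and 1 fell, among them the small GTPase RAB7A (0.27, higher in 8 of 8 clones; 0.17 without CC clone 3). Of 33 regulators 5 rose and 1 fell, and DDIT4, a stress-induced inhibitor of mTORC1, rose by 0.61, and the Rag GTPase RRAGA by 0.19. Of 6 genes that sort enzymes to the lysosome 1 rose, the mannose-6-phosphate receptor IGF2R, at 0.21. The shares called were 25% for the autophagy receptors, 28.6% for fusion, 18.2% for the regulators and 16.7% for sorting. Over all tested genes the share was 18.9%. Of the pathway genes named here, those that still passed without CC clone 3 were ATP6V1E1, ATP6V1G1, ATP6V0E1, LAPTM4B, SLC17A5, CD63, CLCN7, CTSV, VMP1, NCOA4 and DDIT4. The motif GTCACGTG was in the promoters of 20 of 133 matched genes of this list (15.0%). All 20 were tested, of which 4 rose and none fell, beside 10.7% up and 6.43% down over all 513 tested genes with the motif.

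**Figure D4:**
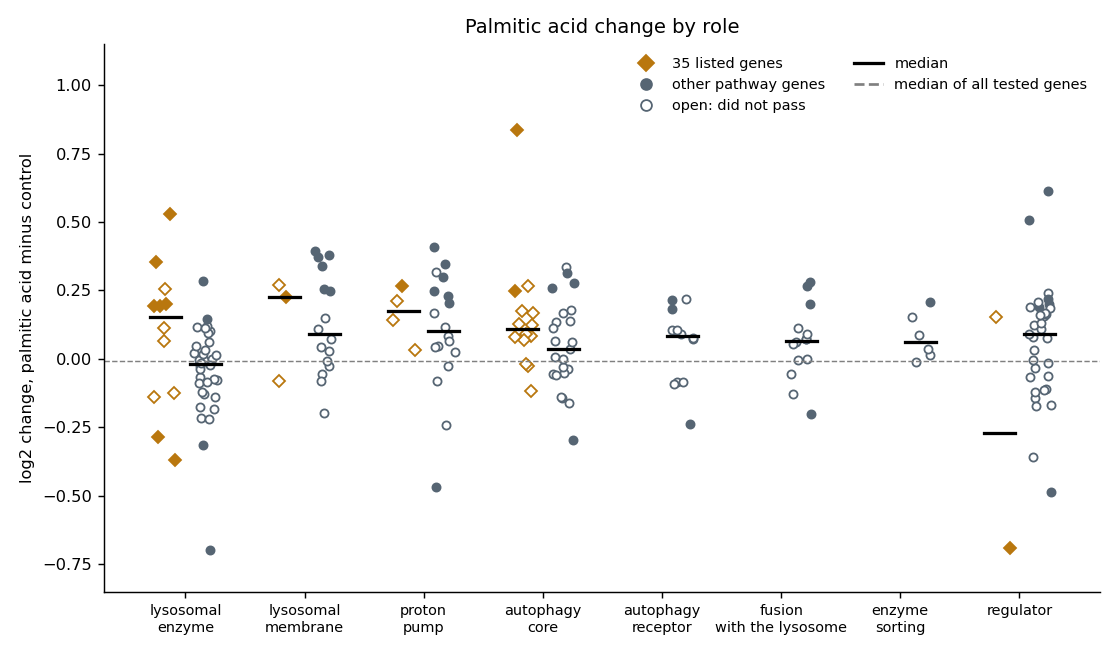
Log2 change with palmitic acid (mean over genotypes) by role, for the 35 genes (orange diamonds) and the other pathway genes (grey circles), filled where a gene passed. Black bars are medians and the dashed line is the median of all tested genes at -0.01. SQSTM1 stands apart in the autophagy core at 0.84 and TFEB among the regulators at -0.69.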

How the data were processed

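RNA was measured in 16 libraries of 8 clones. Per the labels' protocols, libraries were stranded, after removal of ribosomal RNA. Tools named in the submitters' processing notes are Trimmomatic (0.38), Bowtie2, RSEM (1.3.0) and edgeR, with build hg38. No source used here gives the annotation or the gene filter. Labels of single libraries give 48 to 55 h of treatment and the protocol 48 h; the protocol was taken and the hours entered no test.

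The deposited signal is a normalized value for 16558 genes. All values (100% at a tolerance of 0.01 reads) were whole multiples of 1 step per library, so reads were recovered, and TMM-scaled CPM recomputed from them with edgeR differed from the deposited signal by at most 1.33e-15 in relative terms. Column totals were 961492 to 1052700, and libraries detected 15662 to 16206 genes.

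Log2 of the value plus 0.5 was tested with limma 3.58.1 (R 4.3.3) and a mean-variance trend, two-sided, for 13095 genes (mean over the 16 libraries at or above 1 unit), with Benjamini-Hochberg adjustment in each of 10 comparisons. Responses took clone as a fixed block with a response per genotype (5 residual degrees of freedom). Genotype differences were tested on 8 clone means. The pairing comes from the labels, which name the same clone for both libraries; deviations from the group means correlated at 0.523 to 0.857 within a clone, and 8 of 8 clones correlated best with their own partner. On simulated data with 200 of 13095 genes changed by 1 on the log2 scale, the response test recovered 99% of them, with 5.71% false calls. That change was larger than any mean change of the 35 genes (-0.69 to 0.84), and simulated clones did not differ in response. Both rates therefore do not carry over to smaller changes or to responses that vary between clones. Alternatives were edgeR 4.0.16 and DESeq2 1.42.0 on recovered reads, other pseudocounts, filters and scalings, equal weight per clone, no block and leaving out each clone.

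The 35 genes, the other lists and the tests were chosen with earlier results of these data known. Values in every library were given for members that passed and for the 2 members of each role with the smallest p. In the differences the 2 members with the smallest p were named. Pathway genes were named where they passed with the same direction in 8 of 8 clones, up to 4 a direction in each role; a gene that met this rule is not reported here. Gene positions and exon lengths are from GENCODE on GRCh38, and promoters from RefSeq on GRCh38.p14.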

Additional observations from a re-analysis of the deposited data

Results flagged for a closer look

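In 3 of the 35 genes 1 clone's log2 change lay far from the other 7, by a rule on the gap relative to the range that chance meets in about 1 of 20 groups. How many of all tested genes met this rule was not counted. GAA changed by -1.02 in CC clone 3, against -0.48 to -0.04 elsewhere. GUSB changed by -0.70 in GG clone 1, against -0.37 to -0.12. BECN1 changed by 0.29 in GC clone 3, against 0.05 to 0.14.

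In 2 genes every clone of 1 genotype moved one way and every clone of another the opposite way, while the interaction test of the difference did not pass. With 2 or 3 clones a genotype such a split can arise by chance. Its share over all tested genes was not counted. ATG3 was lower with palmitic acid in the 3 GG clones and higher in the GC and CC clones, with a difference of -0.44 for GG minus GC and -0.37 for GG minus CC (limma adjusted p = 0.999 and 0.797). ATP6AP1 was higher with palmitic acid in the GG clones and lower in the CC clones, with a difference of 0.15 (limma adjusted p = 0.856).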

How the results depend on the processing

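Over genotypes 12 of the 35 genes passed, and the same 12 passed with pseudocounts of 0.1 and 1, no filter or a filter at a mean of 5, median-ratio size factors, and edgeR on recovered reads. DESeq2 called 11, without CTSB, and equal weight per clone called 15. The pairing mattered: with no replicate block the counts were 0 over genotypes, 0 in GC and 0 in CC, against 12, 1 and 2 with the block. Leaving out 1 clone gave 3 to 19 calls over genotypes, 0 to 1 in GC and 0 to 8 in CC, while the share of all tested genes called ran from 9.58% to 28.7%, 0.0153% to 0.817% and 0.0993% to 15.9%. For the differences in response it gave 0 to 2 calls for GG minus CC and 0 to 1 for GC minus CC, beside 0% to 3.71% and 0% to 2.85% of all tested genes, the calls arising without CC clone 1, where CC is the lone clone 3 and is assumed to vary like the GG and GC clones. GAA, SQSTM1 and TFEB passed in 8 of 8 such fits, GLA and ATP6V0D1 in 7, CTSA in 6, GUSB and HEXA in 5, CTSB in 4, CTSD and LAMP1 in 3 and ATG16L1 in 2. All 12 kept their direction in every alternative run. Leaving out 1 clone moved the log2 change of ULK1 (-0.02) between -0.1141 and 0.0774, above 0 without GG clone 2 (0.0209), GC clone 2 (0.0020) or CC clone 1 (0.0774). That of WIPI2 (-0.03) moved between -0.0702 and 0.0170, above 0 without CC clone 1. None of these passed, and the cause was not tested. Median-ratio scaling rescaled single libraries by -0.03 to 0.01 on the log2 scale. With 2 or 3 clones a genotype, no genotype difference passed, that of GAA (-0.89 for GG minus GC) included. MCOLN1 rests on 60 to 130 reads per library.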
